A study of Mus musculus with 10 samples.

Results

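The muscle miRNAs, known as myomiRs, are 7 mature miRNAs of the miR-1, miR-133, miR-206 and miR-499 families. They were chosen by name and not by any measured value, though earlier results of these data were known. They are miR-1a-3p, miR-1b-5p, miR-133a-3p, miR-133a-5p, miR-133b-3p, miR-206-3p and miR-499-5p. The table of brown adipose tissue (BAT) vesicles lists 7 of them among 679 miRNAs, and the table of plasma vesicles lists 5 of them among 436, since miR-133a-5p and miR-133b-3p have no entry there. The 2 tables together hold 721 miRNAs.

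Small extracellular vesicles (sEV), membrane particles that cells release with RNA inside, were taken from BAT or plasma of C57BL/6J mice, a standard inbred strain, and their miRNAs were sequenced. The 10 libraries fall into Exe BAT (3 libraries), Sed BAT (3), Exe plasma (2) and Sed plasma (2). The study set vesicles after exercise beside vesicles before it, and Sed is taken to mean untrained mice. However, a single schedule, sessions of 90 min, 2 per day, over 4 weeks, is given in the labels for every library, also those of Sed, and they give no age, sex or pooling of animals.

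As background, miRNAs are short RNAs that pair with messenger RNAs, mainly through the seed at bases 2 to 8, and lower their translation and stability. The muscle miRNAs are made in skeletal and heart muscle under muscle transcription factors such as MyoD, SRF and MEF2. miR-1 promotes differentiation of muscle cells, miR-133 is tied to proliferation of myoblasts and, in brown fat precursors, restrains PRDM16 and thereby brown fat fate. miR-206 has the seed of the miR-1 family and is made in skeletal muscle and hardly in heart, and miR-499 comes from a myosin gene of slow muscle and heart. Brown fat and skeletal muscle arise from related precursors, and muscle lies against the main brown fat depot.

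The mature sequences of miR-206, miR-133b and miR-499 are shown because miRNA families are defined by the seed. The arms miR-1b-5p and miR-133a-5p are members by name, and not by any seed shown here. RefSeq's table for GRCm38.p6 held 3 of the 7 members, and miR-208b-3p, a heart and slow muscle miRNA that is no member, is added for its likeness to miR-499-5p. The seed is in capitals, and each runs 5′ to 3′.
miR-206-3p: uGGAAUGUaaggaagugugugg
miR-133b-3p: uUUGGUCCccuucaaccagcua
miR-499-5p: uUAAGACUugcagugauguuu
miR-208b-3p: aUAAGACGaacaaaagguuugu
The mature miR-206-3p lies at chr1:20679055-20679076 and miR-133b-3p at chr1:20682834-20682855, both on the plus strand. Their hairpins are 3686 bases apart, and GENCODE M21 places both in exons of the long noncoding RNA Gm28653 on that strand. The mature miR-499-5p lies at chr2:155622893-155622913 on the plus strand, in an intron of Myh7b, a slow-type myosin heavy chain gene. The seeds of miR-499-5p and miR-208b-3p are identical at 6 of 7 bases.

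Exe BAT libraries held 116584, 158795 and 172279 reads of miRNAs, and Sed BAT libraries 169345, 104064 and 116084. Exe plasma libraries held 1209116 and 1766070, and Sed plasma libraries 1341678 and 1798169. The labels do not tie replicates to separate animals. The p-values are therefore set by the variation among the libraries at hand, part or all of which may be technical. Brown fat markers (6 miRNAs, among them miR-193b-3p, miR-365-3p and miR-378a-3p) made up 23.2% to 30.1% of miRNA reads in Exe BAT and 17.9%, 6.72% and 23.0% in Sed BAT. Most of this share was miR-378a-3p, with 28351, 3804 and 24801 reads in Sed BAT, in order of replicate. In contrast, miR-193b-3p (996, 1696 and 1133 reads) and miR-365-3p (726, 1288 and 552) were highest in replicate 2. The rare miR-455-3p (6, 2 and 4 reads) was lowest there. Among the brown fat markers, Sed BAT replicate 2, the library at 6.72%, therefore stood apart mainly by miR-378a-3p, and not by all of them. Other miRNAs, such as miR-22-3p and miR-24-3p, were also lowest in that library among the Sed BAT libraries. Results that rest on that library are given without it too. The 6 brown fat markers made up at most 0.502% of reads in plasma. Red cell miRNAs, mostly miR-451a, made up 14.6% and 18.1% of reads in Exe plasma, against 73.3% and 55.7% in Sed plasma.

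In BAT vesicles, miR-133a-3p, miR-206-3p and miR-1a-3p were abundant, and their order differed between the groups. The muscle miRNAs together made up 2.98%, 3.62% and 2.56% of miRNA reads in Exe BAT and 3.12%, 5.84% and 3.36% in Sed BAT. The highest of these is Sed BAT replicate 2, and the groups overlapped. miR-133a-3p ranked 10, 11 and 14 among all miRNAs in the Exe BAT libraries and 21, 21 and 15 in the Sed BAT libraries. miR-1a-3p ranked 30, 30 and 38 in Exe BAT and 16, 13 and 16 in Sed BAT.

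Levels are given first as reads per 1000000 miRNA reads of a library, without further scaling, written miRNA RPM. Mature miRNAs have nearly the same length, so no length correction was made, and levels of different miRNAs are abundances in the library. In Exe BAT, miR-133a-3p averaged 15564 ± 3272, miR-206-3p 7765 ± 2012, miR-1a-3p 5859 ± 1301, miR-499-5p 541 ± 39.0, miR-1b-5p 519 ± 80.6 and miR-133b-3p 274 ± 84.8 miRNA RPM (SD, n = 3). In that order, miR-206-3p did not differ from miR-1a-3p, nor miR-499-5p from miR-1b-5p, beyond the spread of the libraries, while the other neighbours did not overlap. In Sed BAT, miR-1a-3p averaged 18534 ± 10584, miR-133a-3p 12157 ± 1167, miR-206-3p 7643 ± 2927, miR-1b-5p 1750 ± 631, miR-499-5p 789 ± 157 and miR-133b-3p 190 ± 92.3 miRNA RPM (SD, n = 3). There the ranges of miR-1a-3p and miR-133a-3p overlapped, as did those of miR-133a-3p and miR-206-3p.

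**Figure D1:**
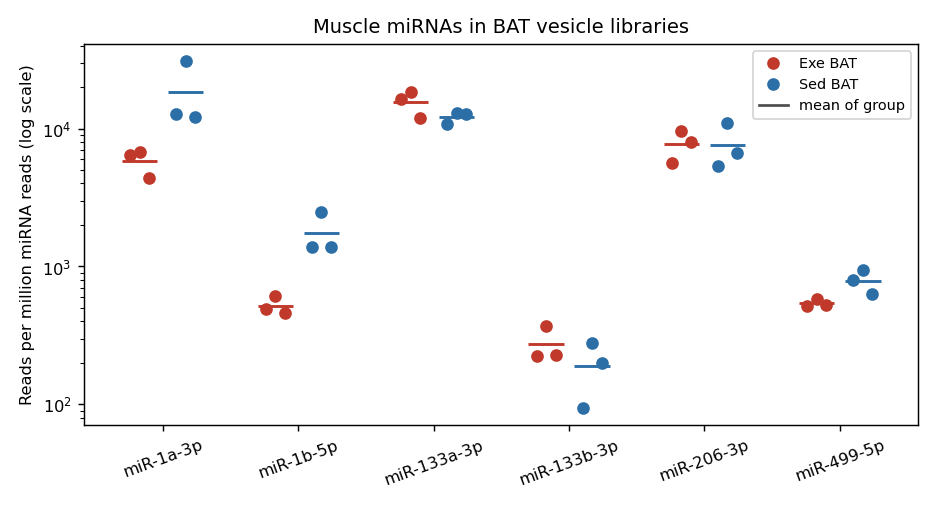
Reads per 1000000 miRNA reads (miRNA RPM, log axis) of 6 muscle miRNAs in each of 3 Exe BAT and 3 Sed BAT vesicle libraries, with lines at the group means. For miR-1a-3p and miR-1b-5p every Exe point lies below every Sed point, while miR-206-3p overlaps between the groups.

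The comparison of Exe BAT with Sed BAT addressed what training did to the miRNAs carried by BAT vesicles. miR-1a-3p and miR-1b-5p fell, and the rest of the muscle miRNAs did not pass the test in either direction. miR-1a-3p, the main miR-1, had 754, 1071 and 752 reads in Exe BAT, against 2159, 3200 and 1405 in Sed BAT. These were 6467, 6745 and 4365 miRNA RPM in Exe and 12749, 30750 and 12103 in Sed, so the groups did not overlap and Sed replicate 2 was the highest library. On the composition-adjusted (TMM) scale of edgeR it averaged 6070 ± 1180 counts per 1000000 scaled reads (CPM) in Exe BAT and 16832 ± 6209 CPM in Sed BAT (SD, n = 3 each). It was 2.77-fold lower, with a log2 fold change of -1.47 (SE 0.30, edgeR quasi-likelihood test, adjusted p = 0.0107 by Benjamini-Hochberg over 199 miRNAs).

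miR-1b-5p, an arm of the Mir1b hairpin, had 57, 97 and 79 reads in Exe BAT, against 233, 258 and 162 in Sed BAT. The groups did not overlap here either. It averaged 540 ± 76.1 CPM in Exe BAT and 1630 ± 263 CPM in Sed BAT (SD, n = 3 each) and was 3.01-fold lower, with a log2 fold change of -1.59 ± 0.25 (SE, edgeR adjusted p = 0.00471). GENCODE M21 places the Mir1b hairpin over Mir1a-2 on the opposite strand, and whether the counting used strand is not given in the sources used here, so reads of these partners may not be told apart. Within libraries, miR-1b-5p had 0.0756, 0.0906 and 0.105 reads for each read of miR-1a-3p in Exe BAT and 0.108, 0.0806 and 0.115 in Sed BAT, which overlap.

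The miR-133 arms did not pass the test. miR-133a-3p had 1920, 2904 and 2056 reads in Exe BAT and 1833, 1352 and 1469 in Sed BAT. On the edgeR scale it averaged 16134 ± 2977 CPM in Exe BAT and 11717 ± 1606 CPM in Sed BAT (SD, n = 3 each), and the lowest Exe library lay below the highest Sed library. Its log2 fold change was 0.46 ± 0.24 (SE, edgeR adjusted p = 0.179).

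miR-133b-3p, nearly identical in sequence and made beside miR-206, had 26, 59 and 39 reads in Exe BAT and 16, 29 and 23 in Sed BAT, with a log2 fold change of 0.71 ± 0.36 (SE, edgeR adjusted p = 0.175). Because the mature miR-133a-3p and miR-133b-3p are so alike, the split of reads between them is uncertain. The other arm, miR-133a-5p, had 2 reads in Exe BAT replicate 2 and 1 in Sed BAT replicate 1 and none elsewhere, too few for a fold change, and it did not pass the filter on low counts.

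miR-206-3p, the skeletal muscle member, had 656, 1528 and 1386 reads in Exe BAT and 909, 1139 and 768 in Sed BAT. The groups overlapped, with a log2 fold change of 0.19 ± 0.27 (SE, edgeR adjusted p = 0.637). miR-499-5p, the slow muscle and heart member, had 60, 93 and 90 reads in Exe BAT and 135, 98 and 73 in Sed BAT. These were 515, 586 and 522 miRNA RPM in Exe and 797, 942 and 629 in Sed, which do not overlap, yet the log2 fold change of -0.42 ± 0.23 did not pass (SE, edgeR adjusted p = 0.193).

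In all, 2 of the 6 muscle miRNAs tested in BAT were lower and 0 higher. The 2 are miR-1a-3p and miR-1b-5p, whose reads may not be told apart, so they may not be separate falls. Of all 199 miRNAs tested, 22.6% were called, 13.1% lower and 9.55% higher, and their median log2 fold change was -0.06, against -0.11 over the 6 members. Without Sed BAT replicate 2 both falls were smaller in size and both passed (miR-1a-3p -1.06, adjusted p = 0.00117, and miR-1b-5p -1.38, adjusted p = 0.000644, edgeR). The call for miR-1a-3p was lost without Exe BAT replicate 1 (-1.48, adjusted p = 0.0514, edgeR) and without Exe BAT replicate 3 (-1.21, adjusted p = 0.0765), within a range of 4.61e-05 to 0.0765 over 13 alternatives.

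**Figure D2:**
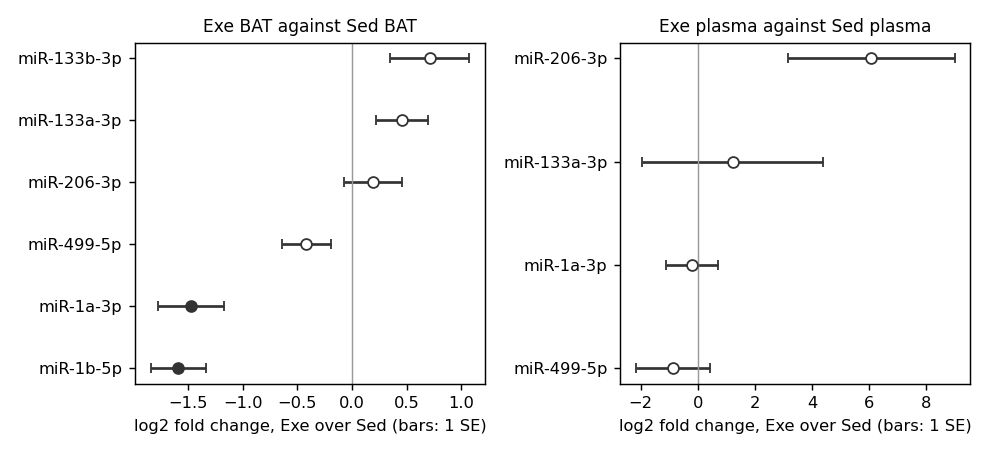
Log2 fold change of Exe over Sed with bars of 1 SE, for 6 muscle miRNAs in BAT vesicles (left) and 4 in plasma vesicles (right), filled where the edgeR adjusted p is under 0.05. The filled points are miR-1a-3p at -1.47 and miR-1b-5p at -1.59 in BAT, and no plasma point is filled.

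A ratio within a library needs no scaling between libraries. miR-133a-3p had 2.55, 2.71 and 2.73 reads for each read of miR-1a-3p in the Exe BAT libraries, against 0.849, 0.423 and 1.05 in the Sed BAT libraries. The 3 Exe libraries were close to each other and all above the Sed libraries. On the log2 scale, with 0.5 reads added to each count, the ratio averaged 1.41 ± 0.0561 in Exe BAT and -0.47 ± 0.68 in Sed BAT (SD, n = 3 each). The difference was 1.88, with a two-sided exact permutation p = 0.1, the smallest that 3 against 3 libraries allow. Leaving out each library in turn gave differences between 1.50 and 2.15.

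Ratios of miR-206-3p and miR-499-5p to miR-1a-3p were also higher in every Exe BAT library than in any Sed BAT library, and were not tested. miR-206-3p had 0.870, 1.43 and 1.84 reads for each read of miR-1a-3p in Exe BAT, against 0.421, 0.356 and 0.547 in Sed BAT. miR-499-5p had 0.0796, 0.0868 and 0.12 in Exe BAT, against 0.0625, 0.0306 and 0.0520 in Sed BAT. The ratio of miR-206-3p to miR-133a-3p overlapped between the groups, at 0.342, 0.526 and 0.674 in Exe BAT and 0.496, 0.842 and 0.523 in Sed BAT. The neighbours miR-133b-3p and miR-206-3p, made from a single locus, stood far apart in reads, with 0.0396, 0.0386 and 0.0281 reads of miR-133b-3p for each of miR-206-3p in Exe BAT and 0.0176, 0.0255 and 0.0299 in Sed BAT.

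**Figure D3:**
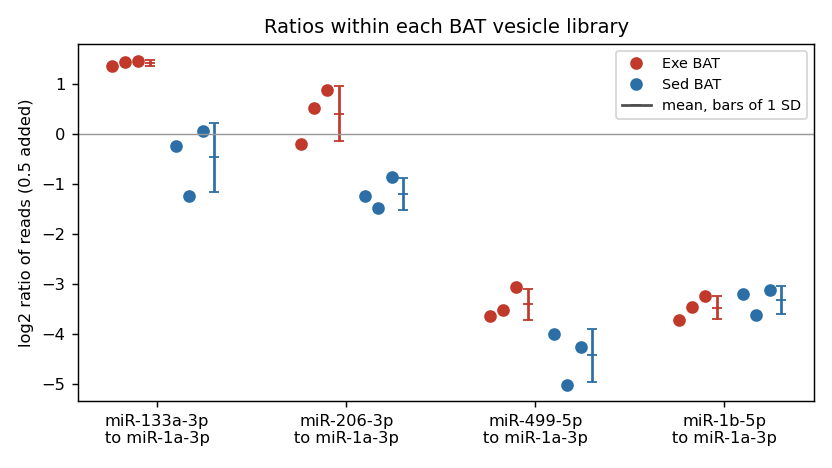
Log2 ratio of reads to miR-1a-3p within each BAT vesicle library (0.5 reads added), with the mean and bars of 1 SD for 3 Exe and 3 Sed libraries. The miR-133a-3p ratio averages 1.41 in Exe and -0.47 in Sed, while the miR-1b-5p ratio overlaps between the groups.

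Seen as a make-up, miR-133a-3p took 50.8% ± 4.30 of the muscle miRNA reads in Exe BAT and 31.5% ± 8.17 in Sed BAT (SD, n = 3 each). miR-1a-3p took 19.1% ± 2.36 in Exe BAT and 43.2% ± 8.56 in Sed BAT. miR-206-3p took 25.6% ± 6.35 in Exe BAT and 18.5% ± 1.26 in Sed BAT, with overlap between the groups. miR-1b-5p took 1.71% ± 0.0789 in Exe BAT and 4.27% ± 0.129 in Sed BAT, without overlap. Shares of a total depend on each other, so these restate the counts above and carry no further test.

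**Figure D4:**
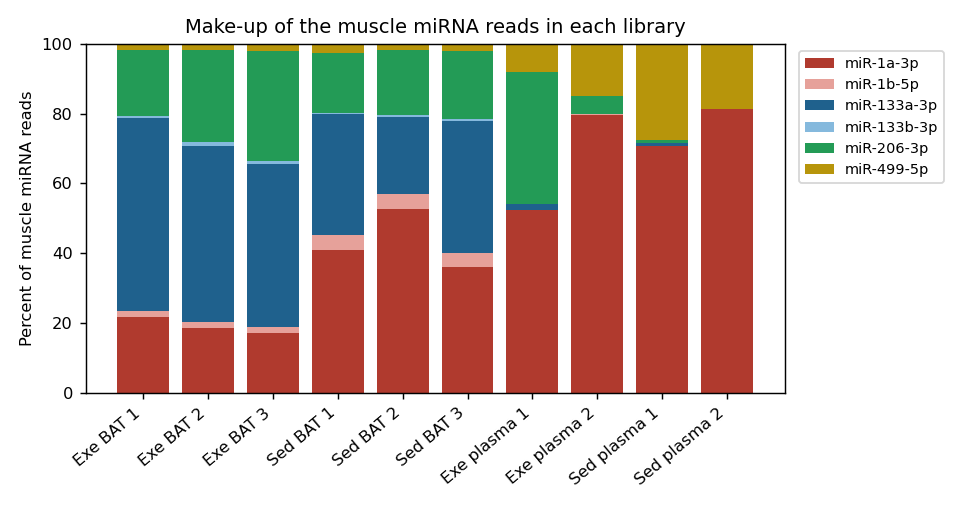
Percent of all muscle miRNA reads taken by each of 6 members in the 6 BAT and 4 plasma vesicle libraries. miR-133a-3p is the widest band in all 3 Exe BAT libraries, and miR-1a-3p is the widest in each Sed BAT library except replicate 3, where miR-133a-3p took 37.7% and miR-1a-3p 36.0%, and in all 4 plasma libraries.

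In plasma vesicles miR-1a-3p took the largest share of muscle miRNA reads in each of the 4 libraries, 52.5% and 79.7% in Exe and 70.6% and 81.5% in Sed, with little miR-133a-3p. The next was miR-206-3p in Exe replicate 1, at 37.7%, and miR-499-5p in the other 3 libraries. The muscle miRNAs made up 0.683% and 0.564% of reads in Exe plasma and 0.207% and 0.651% in Sed plasma. miR-1a-3p had 4334 and 7939 reads in Exe plasma and 1962 and 9537 in Sed plasma, which are 3584 and 4495 miRNA RPM in Exe and 1462 and 5304 in Sed. The Sed libraries lay on either side of the Exe libraries. miR-499-5p had 673 and 1478 reads in Exe plasma and 762 and 2167 in Sed plasma, or 557 and 837 miRNA RPM in Exe and 568 and 1205 in Sed, with overlap.

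miR-206-3p was uneven across plasma libraries. It had 3111 and 530 reads in Exe plasma, against 26 and 0 in Sed plasma, which is 2573 and 300.1 miRNA RPM in Exe and 19.4 in Sed replicate 1. A count of 0 in Sed replicate 2 allows up to 1.67 miRNA RPM, from a limit of 3 reads. Both Exe libraries lay above both Sed libraries, and they differed widely from each other.

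miR-133a-3p had 136 and 0 reads in Exe plasma and 28 and 0 in Sed plasma, so each group had a library at 0. miR-1b-5p had 2 and 8 reads in Exe plasma and 0 and 1 in Sed plasma, a ratio of 10.6 after division by library totals, with an exact 95% counting interval of 1.50 to 458, and it was too low to be tested. Such intervals and limits cover counting error only, since copies made by PCR are not independent molecules.

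**Figure D5:**
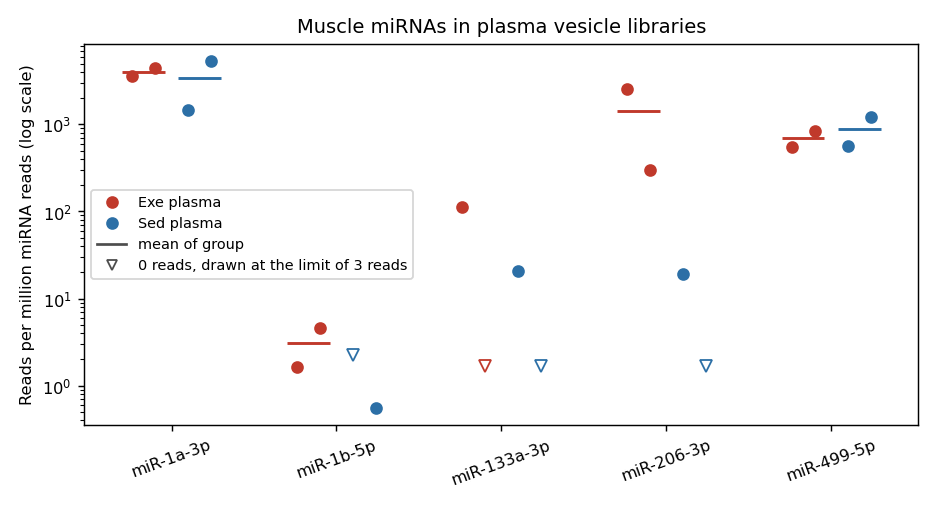
Reads per 1000000 miRNA reads (miRNA RPM, log axis) of 5 muscle miRNAs in each of 2 Exe and 2 Sed plasma vesicle libraries. Lines mark the group means, and are left out where a library of the group had 0 reads. Open triangles mark libraries with 0 reads at the level of 3 reads, and miR-206-3p has both Exe libraries, 2573 and 300.1, above both Sed libraries.

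The comparison of Exe plasma with Sed plasma addressed what training did to the vesicles in the circulation. None of the 4 muscle miRNAs tested passed, and 0% of all 182 miRNAs did by edgeR, although 60 of the 182, and none of the 4, had an unadjusted p under 0.05. DESeq2 called 59 and limma-voom 35. In edgeR the log2 fold changes were 6.07 ± 2.91 for miR-206-3p (SE, adjusted p = 0.204), 1.23 ± 3.16 for miR-133a-3p (adjusted p = 0.785), -0.21 ± 0.92 for miR-1a-3p (adjusted p = 0.874) and -0.86 ± 1.30 for miR-499-5p (adjusted p = 0.656). The errors are wide, and with 2 libraries a group a miss does not show that the levels were alike. The sign for miR-1a-3p turned in 5 of 12 alternatives, library size alone among them, and that for miR-133a-3p turned with limma-voom and without Exe plasma replicate 1.

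The call for miR-206-3p in plasma depended on the tool and on a single library. DESeq2 called it at a log2 fold change of 5.97 (adjusted p = 0.0197). Without Sed plasma replicate 1 edgeR called it too (adjusted p = 0.0016, over 12 alternatives the range was 0.0016 to 0.22). That leaves a single Sed library at 0 reads, which is assumed to vary as the Exe libraries do. With a library left out the fitted log2 fold change ran from 4.32 to 13.82, where the upper end is a fit against 0 reads and no bound. Exe replicate 1 was 132.8-fold above Sed replicate 1 and at least 1542-fold higher than the limit of 3 reads in Sed replicate 2. Exe replicate 2 was 15.5-fold above Sed replicate 1 and at least 180-fold higher than that limit. Other markers moved with the plasma groups. Red cell miRNAs took a larger share of both Sed plasma libraries, as given above. Most of it was miR-451a, which averaged 810663 CPM in Sed plasma and 99192 CPM in Exe plasma. Its log2 fold change was -3.03, against -0.63 for miR-16-5p and -1.57 for miR-144-3p, while miR-486a-5p went the other way at 2.72. By edgeR 0 of the 5 tested were called. Leukocyte miRNAs took 2.23% and 1.98% of reads in Exe plasma, against 0.211% and 0.156% in Sed plasma, with 0 of 2 tested called. Liver miRNAs took 4.10% and 4.06% in Exe plasma and 1.88% and 6.62% in Sed plasma, endothelial miRNAs 1.77% and 1.32% in Exe plasma and 1.04% and 3.19% in Sed plasma, and smooth muscle miRNAs 0.444% and 0.182% in Exe plasma and 0.348% and 0.388% in Sed plasma. The part of these markers in the difference of miR-206-3p was not tested.

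The ratio of miR-133a-3p to miR-1a-3p in plasma was 0.0314 and 0 in Exe and 0.0143 and 0 in Sed. The difference of mean log2 ratios was 0.69 (two-sided exact permutation p = 0.667, where 0.333 is the smallest possible), and its sign turned without Exe plasma replicate 1 or without Sed plasma replicate 2. miR-499-5p had 0.155 and 0.186 reads for each read of miR-1a-3p in Exe plasma, against 0.388 and 0.227 in Sed plasma. miR-206-3p had 0.718 and 0.0668 in Exe plasma, against 0.0133 and 0 in Sed plasma.

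The plasma table also gives a second whole number beside each read count, never above it, whose making is not stated. For miR-1a-3p it was 4178 and 7465 in Exe plasma and 1567 and 376 in Sed plasma. For miR-499-5p it was 660 and 1460 in Exe plasma and 633 and 99 in Sed plasma. Sed plasma replicate 2 thus had 25.4 reads of miR-1a-3p for each unit of the second number, against 1.04 and 1.06 in Exe plasma and 1.25 in Sed plasma replicate 1. For miR-206-3p the second number was 3017 and 528 in Exe plasma and 8 and 0 in Sed plasma.

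Whether the response to training differed between the vesicle sources was tested in 1 fit of all 10 libraries over 234 miRNAs listed in both tables. In that fit the vesicle source cannot be told apart from the table or from a sequencing run. The Exe over Sed change of miR-206-3p was lower in BAT than in plasma, by a difference of log2 fold changes of -6.16 ± 1.92 (SE, edgeR adjusted p = 0.0368), and the call was lost in 10 of 18 alternatives, with adjusted p from 0.0056 to 0.0995. The joint fit gives each miRNA 1 spread over both sources, and the SE of 1.92 is below the 2.91 of the plasma change alone. The spread among the plasma libraries may thus be understated. The call was lost in a limma-voom fit with a spread for each source. It was lost too without any 1 of the 6 BAT libraries (-5.75 to -6.34) and without Exe plasma replicate 1 (-3.62). Without Sed plasma replicate 1 the difference was -12.78, a fit against 0 reads in Sed plasma and no bound. The differences for miR-1b-5p (-3.55 ± 1.33, adjusted p = 0.0671), miR-499-5p (1.05 ± 0.88, 0.358), miR-1a-3p (-0.63 ± 0.85, 0.559) and miR-133a-3p (-1.11 ± 2.30, 0.717) did not pass. Without Exe plasma replicate 1 miR-1b-5p passed (-3.91, adjusted p = 0.0227, edgeR), as did miR-133a-3p (7.22, adjusted p = 0.0409), which then had 0 reads in Exe plasma, and miR-1b-5p also passed without Sed plasma replicate 2 (-5.68, adjusted p = 0.0153). Each of these fits leaves a plasma group with 1 library, which is assumed to vary as the other groups do. So 1 of 5 members was called, where 29.1% of all 234 miRNAs were. The fall of miR-1a-3p in BAT is thus not shown to differ from its change in plasma.

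BAT libraries held a far larger share of miR-133a-3p and miR-1b-5p reads than plasma libraries. The vesicle source cannot be told apart from how each source was sequenced or counted. Scaled by library size alone, the median log2 fold change of all miRNAs, BAT over plasma, was already 2.43 in Exe and 3.84 in Sed. Pooled over libraries, miR-133a-3p had 15369 miRNA RPM in Exe BAT and 45.7 in Exe plasma, a ratio of 336, and 11949 in Sed BAT and 8.92 in Sed plasma, a ratio of 1340. All plasma reads of miR-133a-3p came from replicate 1 of each group. Against that library alone the ratio was 137 in Exe and 573 in Sed, and against the limit of 3 reads in replicate 2 the BAT level was at least 9048-fold higher in Exe and at least 7162-fold higher in Sed. miR-1b-5p had 520 miRNA RPM in Exe BAT and 3.36 in Exe plasma, a ratio of 155. In Sed the ratio of miR-1b-5p was 5264, from 653 reads in Sed BAT and 1 read in Sed plasma. Its exact 95% counting interval was 941 to 208234. For each read of miR-1a-3p, miR-1b-5p had 0.000461 and 0.00101 reads in Exe plasma and 0 and 0.000105 in Sed plasma. All of these lie below every BAT library. Whether strand was used alike in counting both sources is not given. In the joint edgeR fit, miR-133a-3p was higher in BAT by a log2 fold change of 6.54 ± 2.19 in the Exe libraries (SE, adjusted p = 0.0228) and 7.64 ± 2.32 in the Sed libraries (adjusted p = 0.0227). With a library left out these ran from 5.91 to 14.88 in Exe and 6.83 to 14.53 in Sed, the upper ends being fits against 0 reads, and the Sed call was lost without Sed plasma replicate 2 (6.83, adjusted p = 0.068). miR-1b-5p was higher in BAT in the Exe libraries by 5.91 ± 1.04 (SE, edgeR adjusted p = 0.0012). In the Sed libraries the call also passed (edgeR adjusted p = 0.000386). Among the plasma libraries alone miR-1b-5p was too low to be tested, and it entered the joint fit through its BAT reads. Its calls there are therefore no separate support for a difference between the sources.

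miR-206-3p was called higher in BAT than in plasma in the Sed libraries, by 7.04 ± 1.74 (SE, edgeR adjusted p = 0.00813). In the Exe libraries it was at 0.89 ± 1.26 (SE, adjusted p = 0.564). Single plasma libraries moved both values. The pooled Exe BAT level was 3.10-fold that of Exe plasma replicate 1 and 26.6-fold that of replicate 2, and with a library left out the Exe value ran from 0.37 to 3.45 without a call. The pooled Sed BAT level was 373-fold that of Sed plasma replicate 1 and at least 4334-fold higher than the limit of 3 reads in replicate 2. With a library left out the Sed value ran from 6.23 to 13.82 and stayed called, where the upper end is a fit against 0 reads and no bound. miR-499-5p was lower in BAT than in plasma on the TMM scale, by a log2 fold change of -1.77 ± 0.62 in Exe (SE, edgeR adjusted p = 0.026) and -2.82 ± 0.63 in Sed (adjusted p = 0.00529). Scaled by library size alone these became -0.35 and -0.16 and did not pass, while the median of all miRNAs moved to 2.43 in Exe and 3.84 in Sed, against 0.90 in Exe and 1.21 in Sed on the TMM scale. In Exe the call for miR-499-5p was also lost with Sed BAT replicate 3, Exe BAT replicate 1, 2 or 3, or Exe plasma replicate 2 left out (-1.25 without the last, adjusted p = 0.0641, edgeR). miR-1a-3p was at -0.89 ± 0.59 in Exe (adjusted p = 0.201) and -0.26 ± 0.60 in Sed (adjusted p = 0.735), and its sign turned with the scaling. Relative to the median of all miRNAs, miR-499-5p lay at -2.67 to -3.01 in Exe and -3.99 to -4.05 in Sed over 4 scalings, and miR-1a-3p at -1.79 to -2.10 in Exe and -1.32 to -1.47 in Sed. Of the 5 members tested, 2 were called higher and 1 lower in Exe, where 66.7% of all miRNAs were called, 41% higher and 25.6% lower. In Sed, 3 were called higher and 1 lower, where 42.3% of all were called, 22.2% higher and 20.1% lower. Both counts of higher members include miR-1b-5p, which passed the filter through its BAT reads.

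Other muscle miRNAs and the other arms of the same hairpins were mostly rare. Of 15 listed by name, 9 were in the BAT table. miR-208b-3p, made from a slow myosin gene, had 6, 10 and 8 reads in Exe BAT and 10, 17 and 12 in Sed BAT, and miR-208a-3p, the heart miRNA, had 1 read in all, in Exe BAT replicate 2. miR-1a-1-5p, the other arm of a miR-1a hairpin, had 2, 9 and 1 reads in Exe BAT and 4, 12 and 4 in Sed BAT. miR-1a-2-5p had no read in Exe BAT and 1, 3 and 0 in Sed BAT, and miR-133b-5p had 1, 0 and 2 in Exe BAT and none in Sed BAT. In plasma, miR-208a-5p had no read in Exe and 2 and 0 in Sed.

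Of the same list only the 4 arms of miR-486, which is made in muscle and abundant in red cells, were tested. In BAT 1 was lower, miR-486b-3p, at -1.13 ± 0.36 (SE, edgeR adjusted p = 0.0476), and 0 were higher, where 13.1% of all miRNAs were lower. miR-486a-5p and miR-486b-5p have identical reads in every library, since their sequences are shared, and stood at -0.71 ± 0.40 (adjusted p = 0.205), and miR-486a-3p at -0.63 ± 0.35 (adjusted p = 0.205). The median of the 4 was -0.71, against -0.06 over all miRNAs. In plasma 0 of 4 passed, with miR-486b-3p at 6.83 ± 1.88 (SE, edgeR adjusted p = 0.0899) and miR-486a-5p at 2.72 ± 1.58 (adjusted p = 0.279). There miR-486a-5p had 17010 and 14954 reads in Exe plasma, against 2233 and 115 in Sed plasma, and miR-486a-3p had 237 and 892 in Exe plasma and 0 in both Sed libraries.

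A wider list of 25 miRNAs that act in muscle growth or wasting without being confined to muscle had 17 members tested in BAT. Of these 1 was lower, miR-29b-3p, tied to collagen expression and to atrophy, at -1.19 ± 0.26 (SE, edgeR adjusted p = 0.0139), and 0 were higher, where 13.1% of all miRNAs were lower and 9.55% higher. The next by p were miR-29a-3p at 0.69 (adjusted p = 0.0613), miR-23a-3p at 0.73 (0.105) and miR-155-5p at 0.95 (0.149). Their median was 0.13. In plasma 0 of 15 passed by edgeR, with miR-27b-3p at -3.15 (adjusted p = 0.0899), miR-127-3p at 2.94 (0.122), miR-24-3p at -1.62 (0.123) and miR-23a-3p at 2.37 (0.147), and a median of -0.66, against 0.32 over all miRNAs.

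Across the 6 BAT libraries, the miRNAs whose log2(CPM + 1) was most like that of miR-1a-3p were let-7c-5p (Pearson r = 0.993), miR-1291 (0.969) and let-7f-5p (0.968), of 193 compared. For miR-133a-3p they were miR-126a-5p (0.934), miR-326-3p (0.902) and miR-350-3p (0.899). These are descriptions over libraries that share group and composition, without a test. let-7c-5p was at -1.61 between Exe and Sed BAT and miR-126a-5p at 0.32, next to -1.47 for miR-1a-3p and 0.46 for miR-133a-3p.

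Markers of other cells were set beside these results. In BAT, 3 of 6 brown fat markers were higher in Exe and 0 lower, where 9.55% of all miRNAs were higher and 13.1% lower, and miR-365-3p was at -1.08 (edgeR adjusted p = 0.0547). Red cell markers made up 5.33% to 9.52% of reads in Exe and 6.32% to 8.45% in Sed. Smooth muscle markers, miR-143 and miR-145a, made up 5.87% to 8.84% in Exe BAT and 4.77% to 9.22% in Sed BAT, and 0 of 3 tested were called. Endothelial markers made up 4.96% to 8.49% in Exe BAT and 6.35% to 10.6% in Sed BAT, leukocyte markers 0.758% to 1.11% in Exe BAT and 0.683% to 0.878% in Sed BAT, and liver markers 0.121% to 0.238% in Exe BAT and 0.112% to 0.140% in Sed BAT. Among these, 1 of 4 leukocyte markers was lower (miR-142a-3p, -1.19, edgeR adjusted p = 0.0154), 1 of 3 liver markers was higher (miR-122-5p, 2.62, adjusted p = 0.0493), and 0 of 2 endothelial and 0 of 5 red cell markers were called. The part of these markers in the fall of miR-1a-3p and miR-1b-5p was not tested. In bulk vesicle RNA, fewer vesicles that carry a miRNA and less of it per vesicle cannot be told apart, and the cells that released them were not identified.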

How the data were processed

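The authors deposited read counts per mature miRNA and library, 1 table for BAT and 1 for plasma, per the file headers. The BAT table as deposited also holds RPM values, which equal the read count over 1 total per library within 0.0018, with totals of 18924896 to 21160752 reads, far above the miRNA reads by which levels were scaled here (miRNA RPM). A second whole-number count in the plasma table as deposited is never above the read count, and its making is not stated. Bowtie 0.12.2 and the builds mm8 and mm9 are named, with no role, in the submitters' processing notes. For counting, trimming and strand the sources used here give nothing.

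These counts were tested without prior scaling, in R 4.3.3 with edgeR 4.0.16 (quasi-likelihood test, TMM factors, filterByExpr, robust dispersions, Benjamini-Hochberg adjustment over all tested miRNAs, threshold 0.05). The filter left 6 of 7 muscle miRNAs in BAT, 4 of 5 in plasma and 5 of 5 in the joint fit. The SE is the size of the log2 fold change over the square root of F. limma 3.58.1 and DESeq2 1.42.0 were alternatives, with other scalings, no filter, the replicate number as a block, the second plasma number, RPM-implied totals, miR-451a left out and each library left out. A limma-voom fit whose spread is estimated per source was chosen after seeing the data. Ratios within libraries were tested by exact permutation with Python 3.11.15 and scipy 1.17.1, and plots were made with matplotlib 3.10.9. Annotation came from GENCODE M21 (GRCm38). The scripts were tested on simulated data with a single capped dispersion for all miRNAs, which does not cover wider spreads among libraries.

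The members and lists were chosen with earlier results of these data known. All members were named, with every listed miRNA of the list of other muscle miRNAs, up to 4 of smallest p from the wider list, and the 3 most alike in pattern to miR-1a-3p and to miR-133a-3p.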

Additional observations from a re-analysis of the deposited data

Results flagged for a closer look

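The response of miR-206-3p to training was called different between the vesicle sources in the joint edgeR fit, tested as an interaction. The difference of log2 fold changes (BAT minus plasma) was -6.16 ± 1.92 (SE, edgeR adjusted p = 0.0368). The reads of miR-206-3p were 656, 1528 and 1386 in Exe BAT and 909, 1139 and 768 in Sed BAT. In plasma they were 3111 and 530 in Exe and 26 and 0 in Sed. The plasma arm thus rests on 4 libraries, 1 of them at 0. The call was lost in 10 of 18 alternatives. These included the removal of any single BAT library, the replicate block and a limma-voom fit with a spread for each source. With a library left out the difference ran from -12.78 without Sed plasma replicate 1 (adjusted p = 0.0056, edgeR), a fit against 0 reads, to -3.62 without Exe plasma replicate 1 (adjusted p = 0.0995). Both leave a plasma group with 1 library, assumed to vary as the other groups do.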

How the results depend on the processing

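In BAT, both falls kept their direction in 13 of 13 alternatives, miR-1b-5p also its call, and miR-1a-3p its call in 11. With each library left out, 1 to 2 members and 16 to 56 of all miRNAs were called. Same-numbered libraries did not deviate alike from their group means (correlations 0.0042, -0.0833 and -0.1201 in BAT and -0.0755 in plasma). With 2 or 3 libraries a group such deviations depend on each other, so whether the numbers pair libraries stays unsettled. With the replicate block 25 miRNAs were called in BAT (members still 2), 7 in plasma, and 34 in the difference between sources, where miR-206-3p was at -6.29 (adjusted p = 0.0874, edgeR) and 0 members were called. In plasma, 59 were called with DESeq2 (1 member), 4 with upper-quartile factors, 10 with library size alone, 17 without a filter, 35 with limma-voom, 11 with the second number, 2 without miR-451a and 3 to 27 with a library left out (0 to 1 member). There miR-1a-3p turned to 0.26 with library size alone, 0.49 with the second number, 0.069 without miR-451a, and 0.35 and 0.54 without Exe plasma replicate 1 and Sed plasma replicate 2 (-0.60 to 0.54 with a library left out). miR-133a-3p turned to -0.41 with limma-voom and -7.65 without Exe plasma replicate 1 (-7.65 to 9.07 with a library left out). The plasma ratio of miR-133a-3p to miR-1a-3p turned to -0.88 with the second number and ranged from -3.79 to 5.17 with a library left out (-3.37 without Sed plasma replicate 2).

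For the difference between sources, DESeq2 called 3 members, upper-quartile factors 0, library size alone 2, a spread for each source 0 (25 of all) and the second number 44 of all, and with a library left out 0 to 2 members and 36 to 119 of all were called. There miR-1a-3p turned to 0.27 with upper-quartile factors and 0.092 without Sed plasma replicate 1 (-1.98 to 0.092 with a library left out), miR-499-5p to -0.19 with library size alone, and miR-133a-3p to 0.37 (upper-quartile), 0.23 (limma-voom), 0.57 (spread for each source) and 7.22 without Exe plasma replicate 1, which leaves Exe plasma at 0 reads (-7.83 to 7.22 with a library left out). For BAT against plasma in Sed, DESeq2 called 150, library size alone 152 and left-out libraries 77 to 149, and miR-1a-3p turned to 0.33 with DESeq2, 2.46 with library size alone (adjusted p = 0.0103, edgeR), 0.029 with the replicate block, and 0.22, 0.036, 0.45 and 1.26 without Sed BAT 1, Exe BAT 2, Exe BAT 3 and Sed plasma 2 (-0.89 to 1.26 with a library left out). In Exe it turned to 0.22 with upper-quartile factors and 0.56 with library size alone. Without Sed plasma 2, miR-133a-3p in Sed missed the threshold (6.83, adjusted p = 0.068, edgeR), and miR-499-5p in Exe missed it in 8 of 17 alternatives. The causes of these changes were not tested. In BAT the median of all miRNAs moved between -0.19 and 0.08 over 4 scalings, and relative to it miR-1a-3p lay at -1.41 to -1.47. Few reads limit the precision for miR-133a-5p in BAT and miR-1b-5p in plasma. Leaving out a plasma library leaves its group with 1, assumed to vary as the others do.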
